A study of Mus musculus with 12 samples.

Results

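The regions described here are 657 stretches of CpG-dense mouse DNA at the ends of protein-coding genes that carried methylation in untreated leukaemia cells. They were found by cutting the autosomes into non-overlapping tiles of 1000 bp from position 1. A tile entered the class when it held 25 or more CpGs with at least 10 methylation calls in each of the 12 libraries and lay within 1000 bp of the start or end coordinate of a protein-coding gene. Of 7668 such tiles, 657 (8.57%) had a mean methylation of at least 20% over the 4 PBS libraries and are called methylated gene-end tiles below. The other 7011 stayed under that mark, and 87020 tiles were measured in all. The tiles were thus chosen by their PBS values, so every level in PBS and every difference from PBS is a description and supports nothing.

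The study used CMM cells, a GFP-positive mouse model of acute myeloid leukaemia, injected into a vein of C57BL/6 animals. Once GFP-positive cells reached about 1% in blood, mice were given either CpG-STAT3dODN, in which a CpG oligonucleotide carries a decoy for the transcription factor STAT3, or PBS, in 3 intravenous doses on alternate days. Spleens were taken 1 day after the last dose. The groups were GFP-positive cells carrying the myeloid surface protein CD11b from treated mice (CD11b-positive), GFP-positive cells lacking it from treated mice (CD11b-negative), and all GFP-positive cells of the PBS mice (PBS), with 4 libraries each. PBS cells were not sorted for CD11b, so treatment and the CD11b sort cannot be told apart against PBS. Age, sex and further alleles are not given in the labels used here, nor do they say that each library is 1 animal, so the spread that p-values measure here may be technical. DNA methylation gives no level of GFP or CD11b, so the sort could not be checked. The stated question was about a change of DNA methyltransferase levels in treated CD11b-positive cells, set against CD11b-negative or untreated ones.

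CpG-dense gene starts, the CpG islands, are free of methylation in most normal tissues. Known exceptions are germline genes, which DNA methylation keeps silent in body cells, imprinted genes, methylated on the copy from 1 parent, and, in many cancers, the starts of developmental genes that Polycomb proteins hold in normal cells. Methylation inside genes and at their 3′ ends is common and is a usual feature of transcribed DNA.

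The promoter sequences of a methylated tile from 4 gene groups show what the regions look like. They are the 250 bases before the gene start, from RefSeq on GRCm38.p6, and for each group the gene with the most measured CpGs in that stretch was taken. Capitals mark CpGs. Ddx4 (chr13:112652311-112652560, minus strand) stands for germline genes, Igf2r (chr17:12769707-12769956, minus strand) for imprinted genes, Isl1 (chr13:116309689-116309938, minus strand) for developmental transcription factors and Grik3 (chr4:125490446-125490695, plus strand) for neurotransmitter receptors.
Ddx4: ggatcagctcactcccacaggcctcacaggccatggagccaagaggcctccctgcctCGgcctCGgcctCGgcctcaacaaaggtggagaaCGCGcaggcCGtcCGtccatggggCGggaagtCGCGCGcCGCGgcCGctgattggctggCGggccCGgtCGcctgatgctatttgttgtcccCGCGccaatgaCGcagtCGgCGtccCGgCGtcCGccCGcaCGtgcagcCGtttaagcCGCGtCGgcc
Igf2r: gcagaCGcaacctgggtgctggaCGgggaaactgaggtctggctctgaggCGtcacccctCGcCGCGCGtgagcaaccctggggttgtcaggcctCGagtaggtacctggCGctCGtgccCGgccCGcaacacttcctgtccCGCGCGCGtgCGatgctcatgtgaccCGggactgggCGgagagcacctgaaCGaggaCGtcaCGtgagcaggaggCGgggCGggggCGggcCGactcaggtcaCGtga
Isl1: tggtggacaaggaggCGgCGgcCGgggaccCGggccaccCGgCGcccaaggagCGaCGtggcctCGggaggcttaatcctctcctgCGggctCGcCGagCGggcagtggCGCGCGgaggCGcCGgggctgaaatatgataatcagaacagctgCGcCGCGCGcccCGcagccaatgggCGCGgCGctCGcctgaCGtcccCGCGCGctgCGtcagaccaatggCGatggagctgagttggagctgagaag
Grik3: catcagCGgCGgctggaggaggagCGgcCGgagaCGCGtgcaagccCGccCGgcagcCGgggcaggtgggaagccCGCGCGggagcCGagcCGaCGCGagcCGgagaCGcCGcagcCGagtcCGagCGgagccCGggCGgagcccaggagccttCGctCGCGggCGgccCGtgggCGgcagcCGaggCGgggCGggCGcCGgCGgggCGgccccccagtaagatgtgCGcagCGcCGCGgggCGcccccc
These stretches held 31, 27, 33 and 42 CpGs, of which 29, 15, 29 and 25 were measured. Methylation of the measured CpGs of the Ddx4 stretch averaged 96.5% ± 0.423 in CD11b-positive, 97.0% ± 0.614 in CD11b-negative and 96.8% ± 0.380 in PBS (SD, n = 4 each). The Igf2r stretch was near the middle of the scale in each group, at 55.9% ± 1.96 in CD11b-positive, 51.0% ± 2.71 in CD11b-negative and 50.6% ± 5.11 in PBS. For Isl1 the means were 12.8% ± 5.78 in CD11b-positive, 20.3% ± 11.4 in CD11b-negative and 25.1% ± 4.94 in PBS, and for Grik3 25.9% ± 16.7, 44.4% ± 28.5 and 60.6% ± 10.4 in the same order of groups. All 4 stretches are rich in CpGs, and the levels they carry span the scale.

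Of the promoters in the RefSeq table, 285, belonging to 268 genes, lay in a methylated gene-end tile by their position. Their median G+C content was 68.8% and their median ratio of observed to expected CpGs 0.794, against 66.0% and 0.852 in 4487 promoters of the class under the 20% mark. The E-box CACGTG was searched as these letters on both strands, in the 250 bases before the gene start and the 50 after it. It stood in 10.9% of the methylated promoters, in 11.3% of the unmethylated ones and in 7.91% of all 21045 promoters. The E2F-type letters TCCCGC, searched in the same way, stood in 47.0%, 46.2% and 26.0% of the same sets. Neither string separated the methylated from the unmethylated CpG-dense promoters in these counts.

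Before the results, 2 libraries must be set apart. CD11b-positive 2 and CD11b-negative 2 differed from each other by a median of 0.65 percentage points over the methylated gene-end tiles, the smallest of all 66 pairs of libraries. From the other 10 libraries they differed by medians of 14.4 to 37.9 points, while those 10 differed among themselves by 1.85 to 22.6 points. Their counts were not copies of each other, with 133623666 calls in CD11b-positive 2 and 112671408 in CD11b-negative 2. The chi-square statistic per tile averaged 3.36 (median 1.40). Counting error alone would give an average of 1 only if calls were independent, and calls of the same read are not. Whether these 2 libraries differ beyond counting error was thus not tested. Both had the most calls on 8 single-copy Y genes, 41.3 and 40.2 per 1000000 autosomal calls, against 23.8 to 25 in the other CD11b-positive, 8.64 to 12.9 in the other CD11b-negative and 5.52 to 18.6 in the PBS libraries. Both were also low at CpG-dense gene-end tiles of the X chromosome, with 4.99% and 5.50%, against 28.6% to 47.5% in the other 10. As background, Y genes are carried by male cells only, and the CpG-dense gene starts of the X chromosome are methylated on the inactive X of female cells. All 12 libraries are labelled as leukaemia cells. Whether these 2, or a share of any other library, hold cells other than the leukaemia cells was not tested; if they do, the group means and the counts of calls below stand for a mixture of cells. Total calls ran from 112671408 to 157223205 per library. Each tile held 568 to 39853 calls in a library (median 3544). The 95% Wilson intervals were at most ± 3.44 points, cover counting error only and take calls as independent.

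Across the 657 tiles methylation was lowest in the CD11b-positive cells and highest in the PBS cells. The mean over the tiles was 31.1%, 16.2%, 34.3% and 35.9% in CD11b-positive libraries 1 to 4. It was 42.0%, 16.2%, 49.4% and 50.2% in the CD11b-negative libraries and 52.1%, 40.8%, 50.5% and 46.4% in the PBS libraries. Library 2 was the lowest of its group in each case, in 583 of the 657 tiles among CD11b-positive, 594 among CD11b-negative and 576 among PBS libraries. The group means were 29.4% ± 9.01 in CD11b-positive, 39.4% ± 15.9 in CD11b-negative and 47.5% ± 5.06 in PBS (SD, n = 4 each). Without library 2 of each group they were 33.8% ± 2.42, 47.2% ± 4.51 and 49.7% ± 2.93 (SD, n = 3 each), so the CD11b-positive libraries then lay below both other groups without overlap and the CD11b-negative and PBS libraries overlapped.

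**Figure D1:**
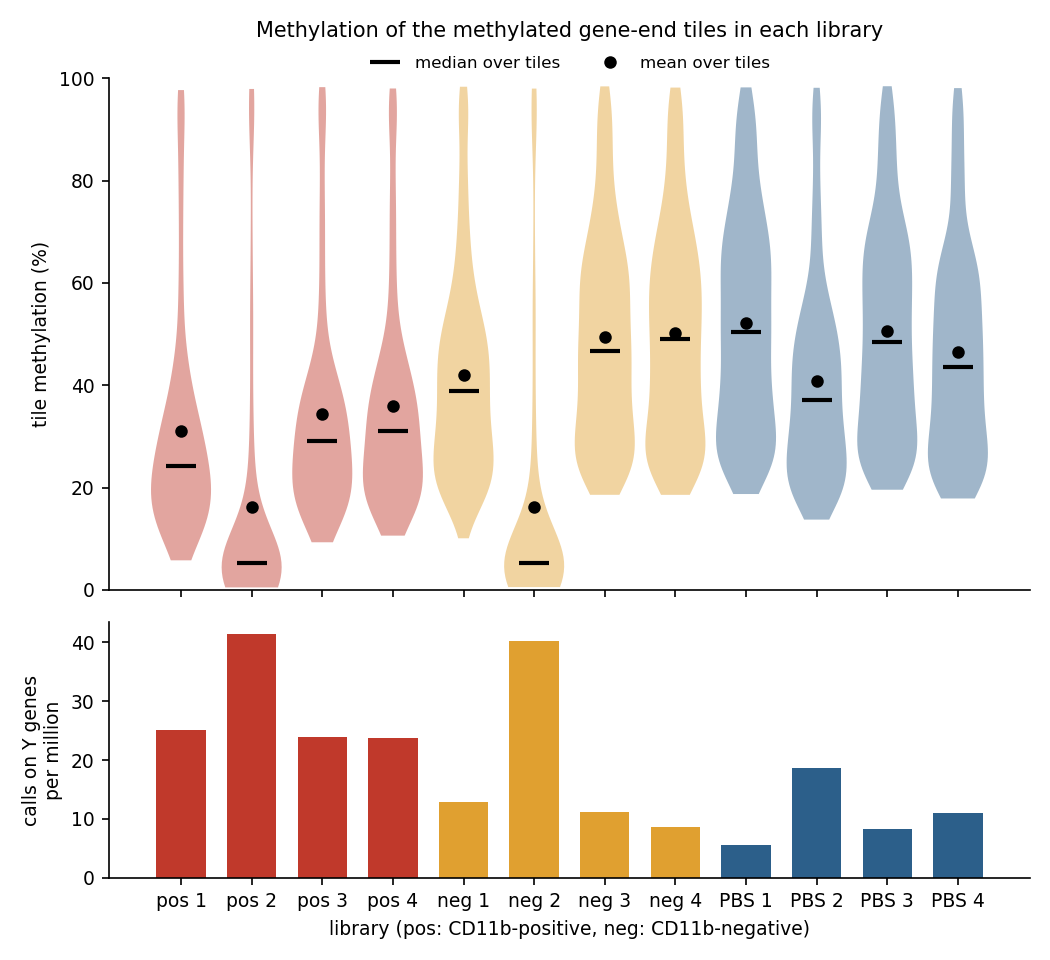
Upper panel: tile methylation (%, vertical axis) of the 657 methylated gene-end tiles in each library, as a violin with the mean (dot) and median (dash); lower panel: calls on 8 Y genes per 1000000 autosomal calls. CD11b-positive 2 and CD11b-negative 2 have medians of 5.16% and 5.33% and the tallest Y bars, at 41.3 and 40.2.

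The order of the libraries by calls on Y genes, from fewest to most, was the order by mean tile methylation from highest to lowest, with 1 swap, between PBS 4 and CD11b-negative 3. The CpG-dense gene-end tiles under the 20% mark stayed low in every library. They averaged 1.79% ± 0.177 in CD11b-positive, 1.95% ± 0.296 in CD11b-negative and 2.03% ± 0.157 in PBS. The 532 CpG-dense tiles away from gene ends that also reached 20% in PBS averaged 49.9% ± 5.21 in CD11b-positive, 55.2% ± 9.09 in CD11b-negative and 59.2% ± 2.98 in PBS (SD, n = 4 each). A fit that holds the calls on Y genes as a term is given below; beyond it, the part of these calls and of the X chromosome levels in the results was not tested.

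The tiles did not all follow the library means. In the mean of CD11b-positive 2 and CD11b-negative 2, 471 of the 657 tiles were under 10%, 59 lay between 10% and 20%, 79 between 20% and 80%, and 48 at or above 80%. These limits were chosen after the values were seen. The gene edge differed among these sets: gene starts made up 343 of the 471 lowest tiles, and gene stops 29 of the 48 highest. The strand came from the RefSeq promoter table, which covers some genes only, so 152 of the 657 tiles lie at an edge of unknown kind, 437 at a start and 68 at a stop. Stops held methylated tiles more often than starts, at 68 of 238 stop tiles (28.6%) and 437 of 5820 start tiles (7.51%). At stops the median was 66.0% in CD11b-positive, 61.8% in CD11b-negative and 60.8% in PBS. At starts it was 21.8% in CD11b-positive, 35.1% in CD11b-negative and 44.3% in PBS. Tile by tile, the median difference of CD11b-positive from CD11b-negative was -0.449 points at stops and -11.6 points at starts. From PBS it was -1.52 points at stops and -21.2 points at starts, so the stop medians do not show a rise tile by tile.

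**Figure D2:**
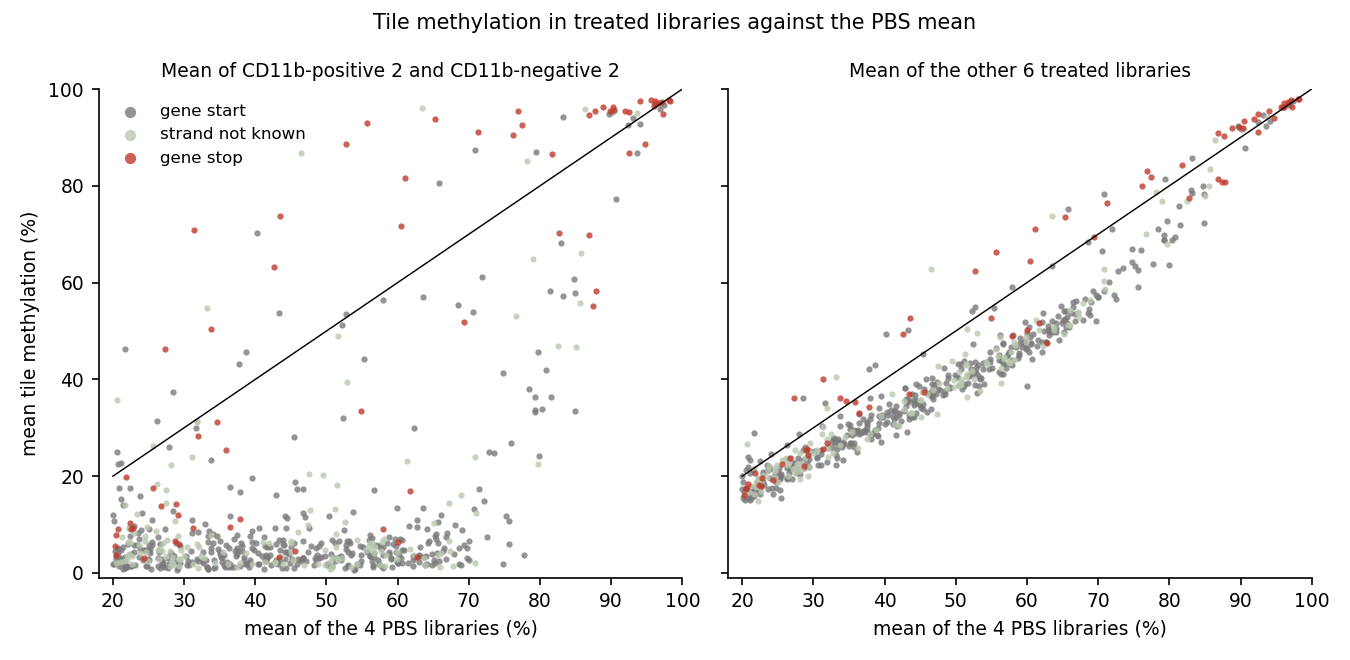
Mean tile methylation (%) in CD11b-positive 2 and CD11b-negative 2 (left) and in the other 6 treated libraries (right) against the mean of the 4 PBS libraries (%), 1 dot per tile, with the line of equal values. On the left 471 of 657 dots lie under 10% whatever their PBS level up to 80%, and 48 lie at or above 80%.

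PBS levels spread over the whole range above the mark. There were 273 tiles between 20% and 40%, 215 between 40% and 60%, 117 between 60% and 80%, and 52 above. Just inside the mark were Phox2a (20% in PBS), Fam189a2, Nrcam, Tril and Alkal2, and just outside it Lpar3, Pitx1, Nkx6-2, Zfp365 and Satb1, at 19.9% to just under 20%. Between 20% and 22% there were 49 tiles, and between 18% and 20% there were 50. Within tiles, single CpGs were mostly at middle levels: 71.6% of the 28785 CpGs lay between 20% and 80% in PBS, and the median SD between CpGs of a tile was 15 points. In CD11b-positive 2 and CD11b-negative 2, 83.5% of these CpGs were under 20%.

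Tiles next to the methylated tiles were often methylated too, though most runs within the set were single tiles. Adjoining tiles outside the set were at or above 20% in PBS in 360 of 495 cases (72.7%), against 490 of 4280 (11.4%) for the neighbours of tiles under the mark. Of the runs of adjoining methylated tiles, 494 were single, 77 were pairs and 3 were triples. Around the starts of 379 genes with a methylated tile, the PBS libraries, which chose the tiles, averaged between 34.0% and 47.0% in every bin of 200 bp, while 4668 genes of the class without one were at 1.10% in CD11b-positive, 1.18% in CD11b-negative and 1.19% in PBS in the last 200 bp before the start. In that bin the genes with a methylated tile had 22.1% ± 9.14 in CD11b-positive, 32.3% ± 16.2 in CD11b-negative and 40.8% ± 4.93 in PBS (SD, n = 4 each). From 2000 to 1800 bp before the start the means were 46.5% ± 2.26, 46.9% ± 2.19 and 46.0% ± 1.58, with overlap between all groups. That bin held only 52 CpGs, against 2364 in the last 200 bp, so it covers few of these genes. From 1800 to 2000 bp after the start, with 322 CpGs, the means were 25.4% ± 7.96, 33.2% ± 13.3 and 41.0% ± 4.88.

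**Figure D3:**
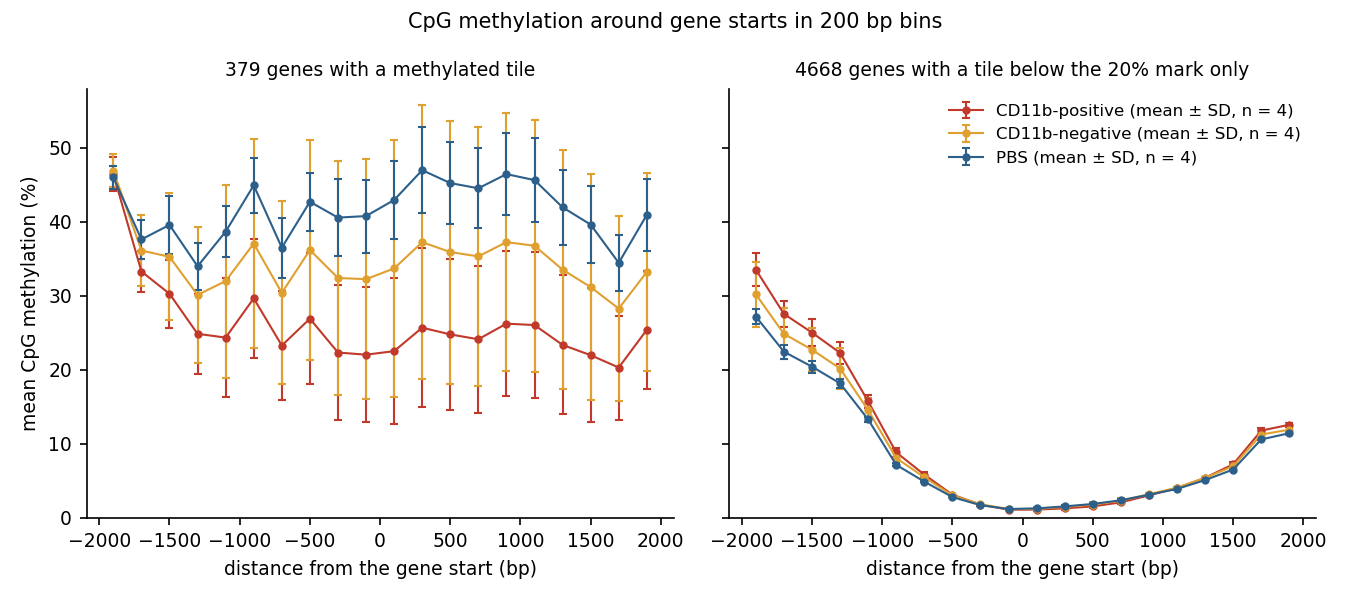
Mean CpG methylation (%) in bins of 200 bp by distance from the gene start (bp) for genes with a methylated tile (left, 379 genes) and for genes with tiles under the 20% mark only (right, 4668 genes). Points are means of 4 libraries and bars the SD. On the left the groups part near the start, with 22.1% in CD11b-positive, 32.3% in CD11b-negative and 40.8% in PBS. Their means meet in the farthest bin before it, which holds 52 CpGs, and stay apart up to 2000 bp after it.

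Germline genes were the most methylated group, and most of their tiles varied little. Of 12 such genes with a tile in the class, 7 had a methylated tile (58.3%), against 600 of 7339 genes of all kinds (8.18%). Ddx4, the germ cell RNA helicase known as Vasa, had 95.6%, 95.8%, 96.8% and 96.3% in the CD11b-positive libraries, 96.5%, 96.0%, 97.4% and 97.4% in the CD11b-negative libraries and 97.3%, 96.7%, 96.9% and 96.3% in the PBS libraries (chr13:112652001-112653000). The groups overlapped, and the 2 libraries that stood apart elsewhere did not stand apart here. Dazl, an RNA-binding protein of germ cells, averaged 93.8% ± 1.26 in CD11b-positive, 92.3% ± 0.298 in CD11b-negative and 92.4% ± 0.779 in PBS. Sycp2, part of the synaptonemal complex of meiosis, averaged 92.6% ± 2.98, 94.0% ± 1.43 and 94.1% ± 0.780 in these groups, and D1Pas1, a testis helicase, 95.1% ± 1.04, 93.8% ± 0.358 and 93.1% ± 0.443. Hsf5, a testis member of the heat shock factor family outside the list, had all 12 libraries between 96.5% and 97.4%. Tdrd6, a Tudor protein of spermatids, differed from these: it had 56.4%, 26.2%, 52.8% and 53.9% in the CD11b-positive, 63.8%, 21.8%, 74.1% and 75.5% in the CD11b-negative and 78.2%, 62.8%, 75.2% and 67.3% in the PBS libraries. Library 2 was the lowest in each of the 3 groups there. The list also held Msh4 and Smc1b. The PBS means of its 7 tiles ran from 68.5% to 96.8%, and Tdrd6, at 70.9%, was not the lowest. In the mean of CD11b-positive 2 and CD11b-negative 2, 5 of the 7 tiles were at 80% or more.

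Most tiles of imprinted genes sat near the middle of the scale. Of 20 with a tile in the class, 10 had a methylated tile (50%), and 64.7% of their 498 CpGs were between 30% and 70% in PBS. Igf2r, which encodes the receptor that clears the growth factor Igf2, had 60.6%, 56.1%, 55.5% and 55.5% in CD11b-positive, 50.1%, 50.9%, 56.2% and 51.5% in CD11b-negative and 50.6%, 47.0%, 53.7% and 59.5% in PBS libraries (chr17:12769001-12770000). Plagl1, a zinc finger gene, averaged 58.5% ± 2.65 in CD11b-positive, 58.3% ± 3.52 in CD11b-negative and 57.9% ± 4.26 in PBS. Zrsr1, a retrogene, averaged 51.0% ± 2.93, 55.8% ± 3.80 and 52.2% ± 2.02, and the 2 Gnas tiles, at the gene of the stimulatory G protein, 51.7% and 62.4% in CD11b-positive, 52.4% and 61.2% in CD11b-negative and 55.3% and 63.5% in PBS. In each of these tiles the groups overlapped, and CD11b-positive 2 and CD11b-negative 2 kept levels between 44.0% and 59.3%. Dlk1, a Notch-like membrane protein, and Dio3, a thyroid hormone deiodinase, lie in 1 imprinted region of chromosome 12 and did otherwise. Dlk1 had 51.6%, 6.99%, 36.3% and 37.3% in CD11b-positive, 59.0%, 7.96%, 65.7% and 71.0% in CD11b-negative and 76.2%, 56.2%, 67.6% and 67.1% in PBS libraries (chr12:109453001-109454000). Dio3 had 3.62% and 4.54% in CD11b-positive 2 and CD11b-negative 2, and 40.5% to 71.7% in the other 10 libraries. The departure was not confined to that region: the tile of Kcnk9, a potassium channel gene on chromosome 15, had 6.73% and 6.28% in the same 2 libraries, which makes 3 of the 12 imprinted tiles under 10% in their mean. Peg12, on chromosome 7, had 34.9% and 29.3% in 1 of its 2 tiles. Against PBS, as a description, 4 of the 12 were called lower in CD11b-positive cells, those 3 and that Peg12 tile, and none higher. Over all tiles 3.76% were called lower and 32.5% higher, and over the 657 tiles 77.5% lower and 2.89% higher.

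Developmental transcription factors made up the largest list. Of 157 such genes with a tile in the class 40 had a methylated tile (25.5%), in 52 tiles, with a median of 15.8% in CD11b-positive, 23.5% in CD11b-negative and 28.7% in PBS. Of these 52 tiles, 43 were under 10% in the mean of CD11b-positive 2 and CD11b-negative 2, against 471 of all 657. Gbx2, a homeobox gene of the early hindbrain, had 28.0%, 1.55%, 35.9% and 39.6% in CD11b-positive, 48.5%, 2.68%, 64.0% and 63.4% in CD11b-negative and 67.5%, 47.0%, 66.2% and 59.4% in PBS libraries (chr1:89930001-89931000). The CD11b-positive and PBS libraries did not overlap, and the CD11b-negative libraries overlapped both. Isl1, a LIM homeobox gene of motor neurons and heart, averaged 15.4% ± 8.71 in CD11b-positive, 32.3% ± 19.6 in CD11b-negative and 35.2% ± 5.36 in PBS. Sox11, a factor of developing neurons, held 1 of the 3 runs of 3 adjoining tiles, from chr12:27341001-27344000 with 153 CpGs. Its run averaged 32.0% in CD11b-positive, 48.5% in CD11b-negative and 64.4% in PBS, and 5.29% in CD11b-positive 2 and CD11b-negative 2. Of 22 Hox genes 6 had a methylated tile, among them Hoxd10, with 18.8% ± 7.58 in CD11b-positive, 30.7% ± 15.2 in CD11b-negative and 31.1% ± 3.07 in PBS, and Hoxa5, with 84.5% ± 2.68, 81.1% ± 5.23 and 79.4% ± 1.34. Foxf1, a forkhead factor of the lung and gut mesenchyme, was the 1 tile of the 657 in which every CD11b-negative library lay below every PBS library. It had 21.3%, 14.7%, 24.3% and 22.7% in CD11b-negative and 26.1%, 28.8%, 26.3% and 28.5% in PBS. The same held for 0.393% of all tiles.

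Tiles within reach of growth regulators spanned low and high levels. Gas1, a membrane protein that binds hedgehog ligands and a member of none of the gene lists, held another run of 3 tiles (chr13:60175001-60178000), with 22.2% in CD11b-positive, 37.3% in CD11b-negative and 47.5% in PBS, and 3.05% in CD11b-positive 2 and CD11b-negative 2. Sfrp1, a secreted Wnt inhibitor that is often methylated in human cancers, had 27.2%, 4.72%, 41.1% and 45.1% in CD11b-positive, 55.4%, 5.04%, 64.4% and 68.2% in CD11b-negative and 67.2%, 50.8%, 67.4% and 61.6% in PBS libraries (chr8:23411001-23412000). All CD11b-positive libraries lay below all PBS libraries there. Of 23 tumour suppressors and Wnt inhibitors with a tile in the class, 5 had a methylated tile: Sfrp1, the cell adhesion gene Cadm1, the cyclin kinase inhibitor Cdkn1c, the differentiation inhibitor Id4 and the phosphatase gene Ptprd. Cdkn1c, also an imprinted gene, kept 40.5% in CD11b-positive 2 and 38.4% in CD11b-negative 2, while the tile of Id4 had 1.98% and 2.92%. Of 38 secreted growth factor genes 8 had one, among them the bone morphogenetic protein gene Bmp3, with 33.0% ± 17.9 in CD11b-positive, 51.2% ± 30.9 in CD11b-negative and 67.2% ± 8.98 in PBS. The 9 tiles of these 8 genes reached 96.1% in PBS. In the mean of CD11b-positive 2 and CD11b-negative 2, 2 of them were at 80% or more, against none of the 52 tiles of developmental transcription factors. The tile with 96.1% is listed for Gdf1 but lies nearest to the stop of Upf1, another gene. Of the 9 tiles 2 lie at gene stops, against 8 of those 52.

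Genes of neurons formed another large set. Of 89 ion channel and neurotransmitter receptor genes with a tile in the class, 28 had a methylated tile (31.5%), and 24 of those 28 tiles were under 10% in the mean of CD11b-positive 2 and CD11b-negative 2. Grin2a, a subunit of the NMDA receptor, had 27.9%, 5.76%, 31.7% and 36.5% in CD11b-positive, 50.4%, 7.16%, 63.2% and 64.1% in CD11b-negative and 61.9%, 47.1%, 64.4% and 57.8% in PBS libraries. Otud7a, a deubiquitinase gene with a wide range over the 12 libraries, had 44.2%, 3.42%, 49.4% and 55.9% in CD11b-positive, 69.1%, 3.96%, 80.2% and 84.4% in CD11b-negative and 85.2%, 69.2%, 81.9% and 74.5% in PBS libraries (chr7:63444001-63445000). Begain, which encodes a postsynaptic protein, held both kinds of tile: the tile at its start averaged 38.9% ± 25.8 in CD11b-positive, 58.4% ± 37.4 in CD11b-negative and 74.7% ± 12.8 in PBS, and that at its stop 77.5% ± 6.60, 79.6% ± 8.53 and 86.9% ± 4.27. At the start CD11b-positive 2 had 0.815% and CD11b-negative 2 had 2.79%, and at the stop 70.2% and 69.4%. Tiles at Grin3b and Hcn2, an NMDA receptor subunit and a pacemaker channel, lie at gene stops and had 94.8% or more in all 12 libraries.

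Blood regulators were in the set about as often as genes of all kinds. Of 33 haematopoietic regulators with a tile in the class 2 had a methylated tile (6.06%), against 8.18% of all genes. Bcl11b, a T cell transcription factor, had 26.8%, 2.76%, 40.1% and 39.5% in CD11b-positive, 51.2%, 2.97%, 62.2% and 64.7% in CD11b-negative and 70.1%, 43.6%, 62.5% and 60% in PBS libraries. Zfpm1, a cofactor of GATA proteins, had a tile at its stop with 97.1% to 98.5% in all 12 libraries. None of 14 genes of the DNA methylation machinery and none of 10 histone genes had a methylated tile, and with so few genes the share over all genes would give few or none. Of 119 genes named Zfp 11 had one, and of 6 clustered protocadherins 5. A cluster between 17 and 25 Mb of chromosome 12 held 20 methylated tiles of 31 in the class, with 67.2% to 85.5% in PBS, of which 16 lie at genes with Gm names. How reads that match several places were handled is not given in the sources used here, so the levels in this cluster are uncertain.

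**Figure D4:**
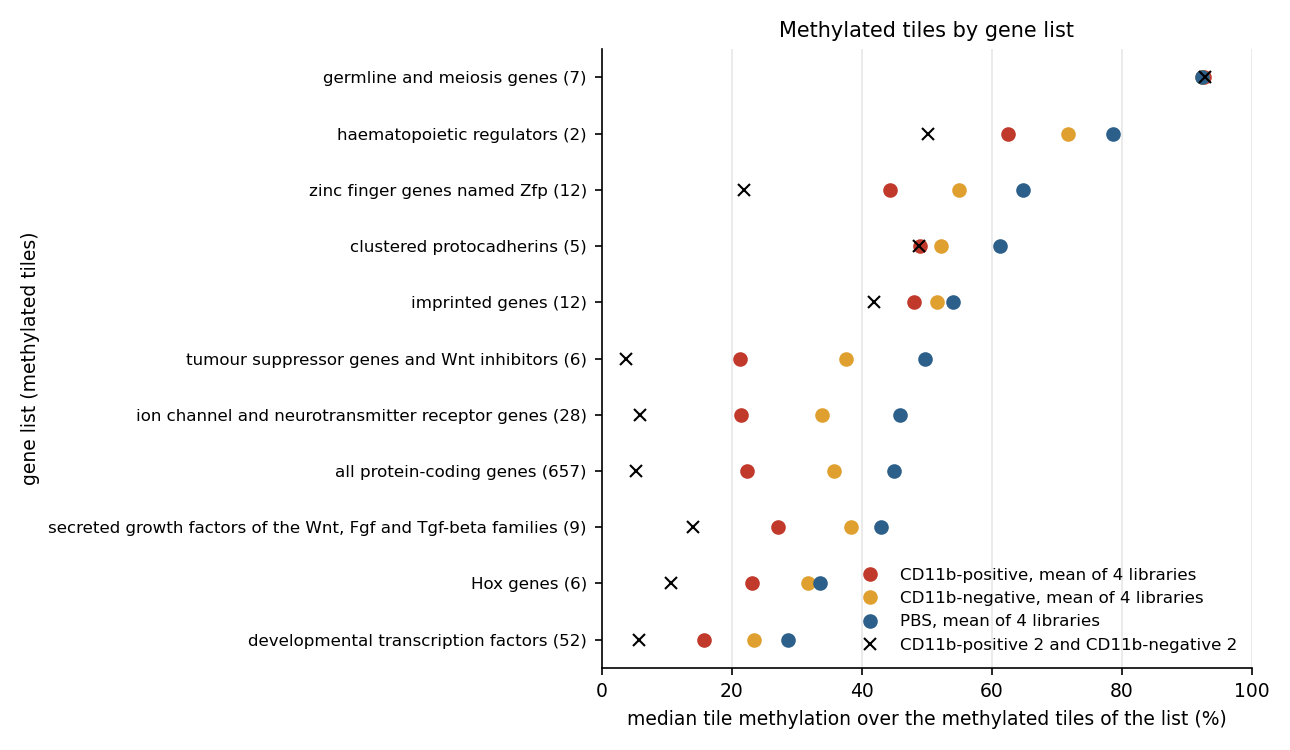
Median methylation (%) over the methylated tiles of each gene list (number of tiles in brackets) as means of the 4 libraries of each group, with the mean of CD11b-positive 2 and CD11b-negative 2 as crosses. Germline genes lie near 92% in all groups, and developmental transcription factors at 15.8% in CD11b-positive, 23.5% in CD11b-negative and 28.7% in PBS.

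The comparison of CD11b-positive with CD11b-negative cells asks how the treated subset differs from the CD11b-negative cells of the same treatment, and it uses no PBS library. In 593 of the 657 tiles the CD11b-positive mean was the lower one and in 64 the higher one, with a median difference of -10.8 points, against 2.18 points over all 87020 tiles. With all 8 libraries none of the 657 tiles passed the test. The lowest adjusted p of the quasi-binomial model was 0.386, and 0 of 87020 tiles were called (0.0%). Tiles were called at an adjusted p under 0.05 with the group means 10 or more points apart. At an unadjusted p under 0.05 there were 32 tiles of the 657 and 9473 of all tiles (10.9%). edgeR's quasi-likelihood test called 0 as well, with 2971 tiles in all at an unadjusted p under 0.05, and a fit of all 12 libraries called 0 of the 657 against 0.0126% of all tiles, each of those lower.

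This depended on 1 library, CD11b-negative 2. Without it, 483 of the 657 tiles were called lower and 12 higher in CD11b-positive, against 20.4% of all tiles called in either direction, 2.72% lower and 17.7% higher. Without library 2 of both groups, a choice made after the values were seen, 435 were lower and 9 higher, again against 20.4% of all tiles (2.69% lower and 17.7% higher). With the replicate number as a block and all 8 libraries kept, 357 were lower and 8 higher, against 13.5% of all tiles (1.97% lower and 11.5% higher). The data single out that number strongly for the libraries numbered 2 only. Leaving out CD11b-positive 2 alone gave 0 calls. With the calls on Y genes as a further term, the direction turned: 24 tiles were called, all higher in CD11b-positive, against 0.116% of all tiles (0.0885% higher and 0.0276% lower), and the median difference was 6.84 points. Of those 24 tiles, 17 lie at gene starts and none at a known stop. The Y calls of these groups overlapped only through CD11b-negative 2, so the fit leans on that library to tell the group from the Y calls.

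Sfrp1 and Gbx2 show what the counts mean for single tiles. The Sfrp1 tile differed by -18.7 points between CD11b-positive and CD11b-negative (adjusted p = 0.386), by -24.9 points without library 2 of both groups (adjusted p = 0.00705) and by 10.7 points with the Y term (adjusted p = 0.319). For the Gbx2 tile described above these differences were -18.4, -24.1 and 15.3 points, with adjusted p of 0.389, 0.00609 and 0.139. The imprinted tiles at Igf2r and Zrsr1 differed by 4.73 and -4.75 points with all 8 libraries, and by 4.59 and -4.10 points without library 2 of both groups (adjusted p = 0.113 and 0.253). Trim47, a RING finger gene, was the 1 tile in which all CD11b-positive libraries lay above all CD11b-negative libraries, with 87.1%, 87.4%, 86.2% and 87.2% in CD11b-positive and 79.8%, 85.9%, 84.1% and 81.0% in CD11b-negative (chr11:116106001-116107000, at the gene stop). It was not called (4.25 points, adjusted p = 0.386), and over all tiles 1.99% had all CD11b-positive libraries higher. Of the 9 tiles called higher without library 2 of both groups, 6 lie at stops, 2 at edges of unknown kind and 1 at a start. The largest was that of Adat3, a subunit of a tRNA deaminase, with 26.7 points.

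Against PBS the same tiles were lower in CD11b-positive cells for the most part. As a description only, since PBS chose the tiles, 509 of the 657 tiles were called lower and 19 higher in CD11b-positive, against 36.3% of all tiles called in either direction, 3.76% lower and 32.5% higher. The median difference was -19.0 points. All CD11b-positive libraries lay below all PBS libraries in 531 tiles and above them in 41, against 5.88% and 50.3% of all tiles. Without CD11b-positive 2 there were 445 lower and 16 higher calls, against 31.3% of all tiles (3.05% lower and 28.2% higher). With the Y term none was called (32 at an unadjusted p under 0.05), against 0.133% of all tiles (0.0218% lower and 0.111% higher), with a median difference of 2.20 points. The Y calls of these groups did not overlap, at 23.8 to 41.3 in CD11b-positive and 5.52 to 18.6 in PBS. The fit with the Y term therefore cannot tell the group from the Y calls. The replicate block gave 530 calls against 35.3% of all tiles (3.83% lower and 31.5% higher). Without library 2 of both groups there were 509 against 33.4% (3.62% lower and 29.8% higher), and a fit of all 12 libraries gave 395 against 32.5% (2.49% lower and 30% higher). The 5 largest losses without overlap were at Otud7a, Kazn, a cell junction gene, Apba2, a neuronal adaptor gene, Slc2a13, an inositol transporter gene, and Zfp385b. Kazn had 28.6%, 1.30%, 41.5% and 42.9% in CD11b-positive and 78.7%, 56.7%, 75.2% and 64.7% in PBS libraries. Slc2a13 had 19%, 1.67%, 25.1% and 35.9% in CD11b-positive and 70.2%, 42.0%, 69.1% and 58.7% in PBS libraries.

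Of the 19 tiles called higher in CD11b-positive than in PBS cells, 10 lie at gene stops, 5 at starts and 4 at edges of unknown kind. The 5 largest gains without overlap are described here. Adat3 had 58.3%, 71.7%, 53.5% and 48.3% in CD11b-positive, 27.2%, 70.2%, 31.5% and 21.2% in CD11b-negative and 23.8%, 39.0%, 31.4% and 31.3% in PBS libraries (chr10:80606001-80607000). CD11b-negative 2 lay among the CD11b-positive libraries there, and the other 3 CD11b-negative libraries lay among or below the PBS libraries. Tent5b, a poly(A) polymerase gene, had 79.0%, 93.1%, 74.9% and 74.4% in CD11b-positive, 56.9%, 92.7%, 60.7% and 51.9% in CD11b-negative and 45.5%, 61.2%, 56.7% and 59.1% in PBS libraries. The tiles of Zfp385a, Gltpd2 and 4930404N11Rik followed the same order, with CD11b-positive means of 77.2%, 77.3% and 86.4%, CD11b-negative means of 60.9%, 60.4% and 72.2% and PBS means of 52.8%, 46.5% and 63.5%. Of these 5 tiles 3 lie at gene stops and 2 at edges of unknown kind.

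**Figure D5:**
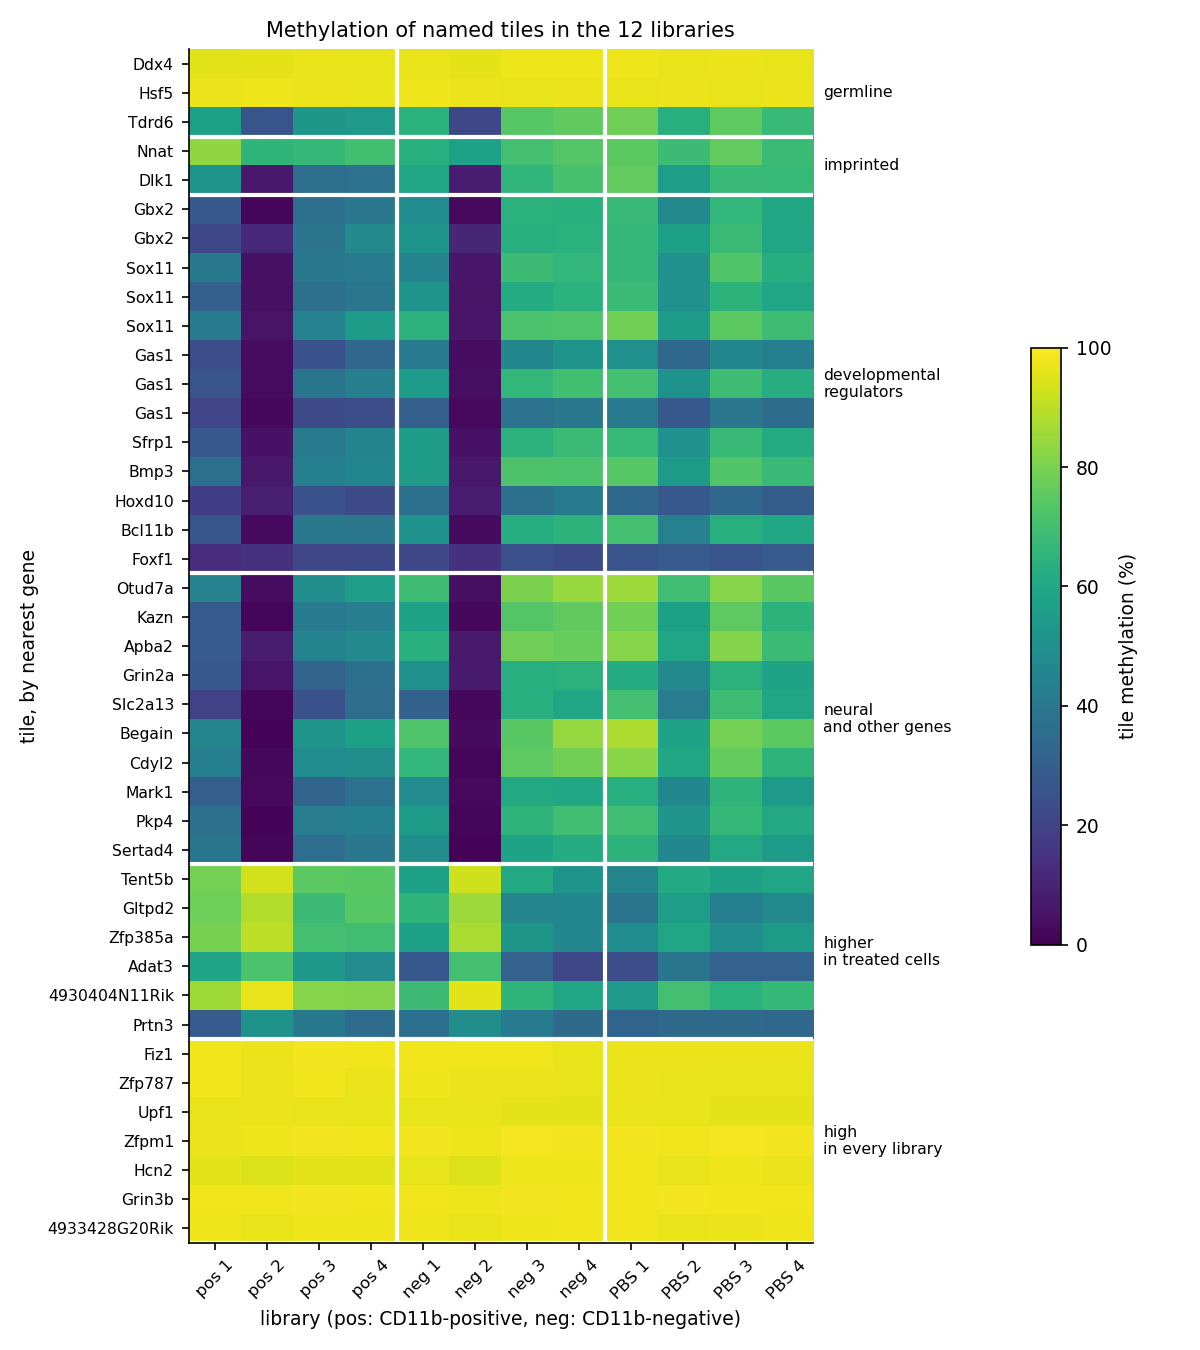
Methylation (%, colour) of tiles named in the text or picked by the same naming rule, 1 row per tile by nearest gene, in the 12 libraries with CD11b-positive left, CD11b-negative in the middle and PBS right. The developmental and neural rows are dark in CD11b-positive 2 and CD11b-negative 2 (Gbx2 1.55% and 2.68%), the rows of Adat3 and Tent5b are brightest in the same 2 libraries, and Ddx4 stays above 95% in all 12.

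Between CD11b-negative and PBS cells none of the tiles passed the test. With all 8 libraries 0 of the 657 tiles were called by the quasi-binomial model, and 0 of 87020 (0.0%), with 9.92% of all tiles at an unadjusted p under 0.05, and edgeR also called 0. The median difference was -8.41 points, and without CD11b-negative 2 it was -0.217 points, with 0 of the 657 tiles called against 0.00345% of all tiles. All CD11b-negative libraries lay above all PBS libraries in 12 tiles and below them in 1, against 10.2% and 0.393% of all tiles. The tile of Prtn3, the gene of the neutrophil granule protease proteinase 3, was 1 of the 12, with 36.4%, 49.3%, 41.5% and 34.5% in CD11b-negative and 32.2%, 34.5%, 34.5% and 33.7% in PBS libraries (chr10:79882001-79883000), where the closest values of the groups round to the same figure. In CD11b-positive libraries it had 28.9%, 51.5%, 40.4% and 35.5%, which overlap both. Nbl1, a secreted antagonist of bone morphogenetic proteins, averaged 50.7% ± 3.79 in CD11b-positive, 51.5% ± 2.74 in CD11b-negative and 43.4% ± 2.45 in PBS, and Selenon, a selenoprotein gene of muscle, 38.6% ± 2.82, 34.3% ± 2.13 and 28.5% ± 3.29 in the same order.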

How the data were processed

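DNA methylation was measured by reduced representation bisulfite sequencing in 12 libraries, 4 in each of 3 groups. The deposited files hold whole-number counts of methylated and unmethylated calls per CpG cytosine and strand, 1 file per library, not normalised by the authors as far as the values show. The submitters' processing notes name the mouse build mm10 and the tools Bismark, methylKit 1.20.0, cutadapt 2.7 and Trim Galore 0.6.4. Bisulfite conversion, duplicate removal and the Bismark version are not given there.

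Counts of both strands were summed per CpG and then per 1000 bp tile, over CpGs with at least 10 calls in all 12 libraries and tiles with at least 3 such CpGs. A quasi-binomial model with an F test was fitted on all 87020 tiles of the autosomes and X, using the 8 libraries compared. Its dispersion was moderated as in limma's squeezeVar within methylation bins bounded at 5%, 20%, 80% and 95%, with a floor of 1, and p-values were adjusted by Benjamini-Hochberg over all tiles. The step was tested on simulated data. Alternatives were edgeR 4.0.16 (quasi-likelihood), other filters, the replicate block, a Y term, a fit of all 12 libraries and libraries left out. Gene positions, strands and promoters came from RefSeq (GRCm38.p6, the build of mm10). All 101092 measured CpGs within promoter sequences fell on a CG there (100%). Exons and introns were not used here.

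Tiles were named by the nearest gene edge. Named tiles were the 5 highest and lowest in PBS, the 5 just outside the mark, the largest differences without overlap per comparison, the 3 with most CpGs, the 3 smallest and largest ranges, 2 per gene list and the 3 longest runs. Other tiles of the lists (Dazl, Sycp2, D1Pas1, Igf2r, Plagl1, Zrsr1, Gnas, Dio3, Isl1, Cdkn1c, Id4, the stop tile of Begain) were chosen after their values were seen. The tiles and lists were chosen with earlier results of these data known. The replicate numbers were taken to pair the treated groups because same-numbered CD11b-positive and CD11b-negative libraries deviated together over all tiles (r = 0.159, 0.926, 0.654 and 0.682 for numbers 1 to 4); without number 2 these were 0.203, 0.0360 and 0.143. With number 2 kept, libraries of different numbers among 1, 3 and 4 correlated as much (r = 0.198 to 0.690). Without number 2, different numbers gave r = -0.198 to 0.111, under the values of 1 and 4 but not of 3. A shared number thus stood out strongly for 2, weakly for 1 and 4, and not for 3. The labels do not say what a number marks.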

Additional observations from a re-analysis of the deposited data

Results flagged for a closer look

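In groups of 4 libraries, a library was listed when its gap to the nearest other, as a share of the group's range, passed Dixon's 95% critical value. Of 186 groups of values looked at, 19 were listed, and chance lists about 1 in 20. CD11b-positive 2 was the library in 9 of them, CD11b-negative 2 in 8, CD11b-negative 4 in 1 and PBS 1 in 1.

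CD11b-positive 2 was low at Sertad4 (1.53%, other CD11b-positive libraries 36.3% to 39.7%), Pkp4 (1.09%, others 36.8% to 43.1%), Cdyl2 (2.26%, others 43.1% to 49.5%), Sox11 (4.58%, others 40.3% to 41.4%), Gas1 (1.99%, others 21.0% to 23.9%), Tdrd6 (26.2%, others 52.8% to 56.4%) and Pcdhac2 (12.1%, others 27.8% to 28.7%). At 4933428G20Rik its 96.5% lay close under 97.3% to 97.4%.

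CD11b-negative 2 was low at Hoxd10 (8.10%, other CD11b-negative libraries 36.8% to 41.1%), Cdyl2 (1.94%, others 66.3% to 78.9%), Sox11 (6.10%, others 64.4% to 72.5%), Begain (2.79%, others 72.3% to 84.2%), Fam189a2 (2.0%, others 19.7% to 21.9%) and Ssbp4 (87.9%, others 95.3% to 96.4%), and high at Tubb4a (93.5%, others 89.1% to 89.6%).

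Calls on Y genes were high in CD11b-positive 2 (41.3 per 1000000 autosomal calls, others 23.8 to 25) and CD11b-negative 2 (40.2, others 8.64 to 12.9). PBS 1 was low at Selenon (23.6%, others 29.5% to 30.4%), and CD11b-negative 4 at Fiz1 (96.8%, others 97.7% to 97.8%). No cause was tested for any of these.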

How the results depend on the processing

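The count of methylated gene-end tiles was 1220 with at least 15 CpGs per tile and 408 with at least 35, against 657 with 25; the other settings gave 491 to 789 and leaving out 1 PBS library 643 to 679. Group means over the tiles moved by less than 1 SD of the group's 4 libraries under every setting run. Leaving out 1 of 4 libraries cannot move a mean by that much, so this part says nothing about stability. Without CD11b-negative 2 the CD11b-negative mean went from 39.4% to 47.2%, beside 47.5% in PBS. Between CD11b-positive and CD11b-negative cells the calls were 0 with all 8 libraries, 24 with the Y term and 444 without library 2 of both groups. The replicate block, a pairing that stood out strongly for number 2 only, gave 365. Leaving out 1 library gave 0 to 495 calls, above 0 only without CD11b-negative 2, and the other settings gave 0. Against PBS, CD11b-positive cells had 528 calls, 530 with the replicate block, 0 with the Y term, 461 to 546 without 1 library and 395 to 610 otherwise. The 610 came with no minimum difference, where 51933 of all 87020 tiles were called. The 546 came without CD11b-positive 4 or without PBS 2, where 32093 and 31662 of all tiles were called. For the other counts of calls above 0 printed here, the shares over all tiles are given in the results. CD11b-negative against PBS gave 0 throughout, the replicate block included. For the comparisons with PBS the numbers were not taken as pairs, since libraries numbered 4 deviated against each other (r = -0.0990 and -0.131).

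With the Y term the sign of the difference turned in most tiles. CD11b-positive was above CD11b-negative in 64 of the 657 tiles without the term and in 581 with it, and above PBS in 63 and 503. Among tiles named for the comparison with CD11b-negative cells it turned, uncalled, at Gbx2 (15.3 points), Hoxd10 (2.04), Zfp385b (7.39), Bmp3 (10.5), Sfrp1 (10.7), Bcl11b (14.8), Dlk1 (7.79), Grin2a (4.52) and Tdrd6 (5.87). Among those named for CD11b-positive against PBS it turned at Zfp385b (1.01), Kazn (3.68), Otud7a (3.98) and Slc2a13 (2.84). The cause was not tested, and against PBS the Y calls cannot be told from the group. With 568 or more calls per tile, the Wilson intervals, which take calls as independent, were at most ± 3.44 points. Whether depth or the number of libraries limits precision more was not tested.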
